A study of Rattus norvegicus with 6 samples.

Results

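The voltage-gated sodium channel genes, voltage-gated calcium channel genes and hyperpolarization-activated HCN channel genes of the hippocampus were described in male Wistar rats. The genes are the pore-forming (a) and beta (b) Scn genes, Cacna1, Cacna2d, Cacnb and Hcn genes. Their symbols were assigned by matching the RefSeq accession of each probe, and 34 such genes were found among the 15154 genes named on the array. These 34 genes carried 42 probes, and the probe with the highest mean log2 signal stands for each of the 8 genes that had more than 1. Of the 36 symbols of this kind in the RefSeq table, Cacna1d and Scn7a had no probe that was matched. Surgery was at the age of 2 months, either orchidectomy, which removes the testes, or a sham operation that leaves them, and the hippocampus was collected after 2 more weeks. Each group held 3 biological replicates on 1 Agilent array each, read in the Cy3 channel. Both groups were of the Wistar strain, and the agents named for both are the anaesthetics ketamine and medetomidine. Values below are log2 signals after subtraction of each array's 75th percentile, so a difference of 1 is a 2-fold change. Differences are orchidectomized minus sham.

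Voltage-gated sodium channels open on depolarization and carry the upstroke of the action potential, and their pore is formed by a single large alpha subunit joined by smaller beta subunits. Voltage-gated calcium channels turn depolarization into calcium entry, which releases transmitter at terminals and drives gene expression from the soma. In many of them, though not all, the pore-forming alpha1 subunit is carried to the membrane by a cytoplasmic beta subunit and an extracellular alpha2delta subunit. HCN channels open on hyperpolarization, are tuned by cyclic AMP and carry a current that damps dendritic summation in hippocampal pyramidal cells.

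Promoter windows, 250 bases before to 50 after the annotated start of the gene, were taken from RefSeq on the GRCr8 assembly and were found for 21 of the 34 genes. The half-site of the androgen receptor, AGAACA or its reverse complement TGTTCT, was searched because the surgery removes the main source of androgen. It was present in the windows of 3 of these 21 genes, Scn2a, Scn4b and Scn10a, and in 20.7% of all 33469 windows in the table. The windows of these 3 genes are shown with the half-site in capitals. It begins 43 bases before the start in Scn2a, 11 bases before it in Scn4b and 40 bases after it in Scn10a.
Scn2a (chr3:70710706-70711005, plus strand): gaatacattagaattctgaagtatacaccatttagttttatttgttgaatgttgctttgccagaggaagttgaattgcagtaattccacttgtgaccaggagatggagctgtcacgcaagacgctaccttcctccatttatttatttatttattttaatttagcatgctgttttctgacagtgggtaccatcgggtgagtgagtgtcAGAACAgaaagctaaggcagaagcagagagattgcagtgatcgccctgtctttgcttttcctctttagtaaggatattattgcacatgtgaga
Scn4b (chr8:54343623-54343922, plus strand): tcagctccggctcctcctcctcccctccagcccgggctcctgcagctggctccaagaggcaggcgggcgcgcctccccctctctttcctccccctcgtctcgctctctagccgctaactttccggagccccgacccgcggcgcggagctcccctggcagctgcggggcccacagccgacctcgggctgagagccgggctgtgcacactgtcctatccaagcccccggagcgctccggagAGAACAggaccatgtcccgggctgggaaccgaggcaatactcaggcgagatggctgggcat
Scn10a (chr8:128340249-128340548, minus strand): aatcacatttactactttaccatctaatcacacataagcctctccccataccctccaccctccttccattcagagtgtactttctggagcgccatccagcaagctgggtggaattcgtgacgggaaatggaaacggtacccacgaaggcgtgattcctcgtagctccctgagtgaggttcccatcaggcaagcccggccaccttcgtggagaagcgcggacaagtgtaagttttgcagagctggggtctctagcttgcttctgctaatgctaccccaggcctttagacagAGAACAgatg
The GC box, GGGCGG or its reverse complement CCGCCC, was present in the windows of 11 of the 21 genes and in 33.1% of all windows. The window of Scn8a, with 7 GC boxes in capitals, is shown because it sets a GC-rich start, 84.7% G and C, beside the Scn2a window at 39.3%.
Scn8a (chr7:133860977-133861276, plus strand): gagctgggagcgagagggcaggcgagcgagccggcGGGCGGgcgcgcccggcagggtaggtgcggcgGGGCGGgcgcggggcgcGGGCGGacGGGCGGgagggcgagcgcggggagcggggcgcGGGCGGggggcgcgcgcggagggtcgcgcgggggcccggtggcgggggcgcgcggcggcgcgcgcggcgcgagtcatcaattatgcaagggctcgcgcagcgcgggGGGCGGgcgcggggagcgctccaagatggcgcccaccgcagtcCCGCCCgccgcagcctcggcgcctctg
A match describes letters and not binding. Orchidectomized minus sham, the array labelled sham 2 left out, Scn2a differed by -0.07, Scn8a by 0.09 and Scn4b by -0.46 log2 units, and Scn10a was too dim to be tested.

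The array labelled sham 2 stood apart from the other 5, so the calls, direction counts and median difference of the channel genes as a set are given with and without it. Differences of single genes, classes and partner genes are given without it unless stated. It correlated with them at 0.876 to 0.880 across probes, against 0.983 to 0.993 among the others. All 7 glutamatergic neuron markers lay over 1 log2 unit lower there, and Slc17a7, Tbr1 and Prox1 were not well above background. All 6 GABAergic neuron markers (median -6.14), all 6 oligodendrocyte markers (-4.47) and 4 of 5 astrocyte markers (-4.60) lay over 1 log2 unit lower there as well. Of 7 choroid plexus markers, 6 lay over 1 log2 unit higher. On the other 5 arrays all 7 glutamatergic markers were well above background, and their mean log2 value was -1.66 to -1.15 on the orchidectomized arrays and -1.24 and -1.02 on sham 1 and sham 3. Mean values of the 6 GABAergic neuron markers were 2.11 to 2.52 on the orchidectomized arrays, against 2.20 and 2.42 on sham 1 and sham 3. The 6 oligodendrocyte markers averaged 2.40 to 2.62 on the orchidectomized arrays, against 2.72 and 2.97 on sham 3 and sham 1, and their part in the channel values was not tested. All orchidectomized arrays were scanned on the same day as sham 1, called scan day 1, and orchidectomized 3 shared slide 2 with sham 1. Within slide 2 and within scan day 1 the median difference of the channel genes was -0.11 and -0.09, both against sham 1 alone. The median over all tested probes was -0.04 in each.

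Without the array labelled sham 2, no hippocampal channel gene was called between orchidectomized and sham-operated rats. None of the 31 tested genes passed an adjusted p of 0.05 in limma (0 of 31, with 0% of all 25208 tested probes called), and the smallest adjusted p among them was 0.988. A difference was above 0 in 9 of the 31 genes and below 0 in 22, where 44.9% of all tested probes were above 0. Scn3b, counted among those above 0, rested on saturated spots. With normexp background correction the split was 16 above and 15 below, where 68.7% of all probes were above 0. With the authors' deposited values the split was 14 above and 17 below, where 56.5% of all tested probes were above 0. Leaving out orchidectomized 3 as well gave 13 above and 18 below, where 42.6% of all tested probes were above 0. Within scan day 1, against sham 1 alone, the split was 14 above and 17 below, where 41.8% were above 0. Against sham 3 alone the split was 9 above and 22 below, where 51.0% were above 0. The low share above 0 among the genes, set against all tested probes, therefore depended on single arrays. With only the array labelled sham 2 left out, the median difference was -0.09 for the genes and -0.02 for all tested probes. The median size of a difference was 0.13 for the genes and 0.13 for all tested probes. No overlap between the groups was seen for 4 of the 31 genes, higher in orchidectomized rats at Cacna1g, where 6.24% of all tested probes were, and lower at 3 genes, Scn4b and Cacna1s among them, where 10% of all tested probes were. In 23 of the 31 genes the 95% interval of the difference lay within 1 log2 unit on either side of 0. With all 6 arrays 0 of 31 genes were called (0% of 24631 probes), and the median difference was 1.30 with 26 genes above 0, where 48.4% of probes were, against -0.09 without the array labelled sham 2. With 6 arrays the smallest limma adjusted p among them was 0.775, and 0 of 31 had an unadjusted p under 0.05, where 0.731% of probes did. Cacna1g alone lay higher without overlap, where 3.26% of probes did, and 0 genes lay lower, where 4.74% did.

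**Figure D1:**
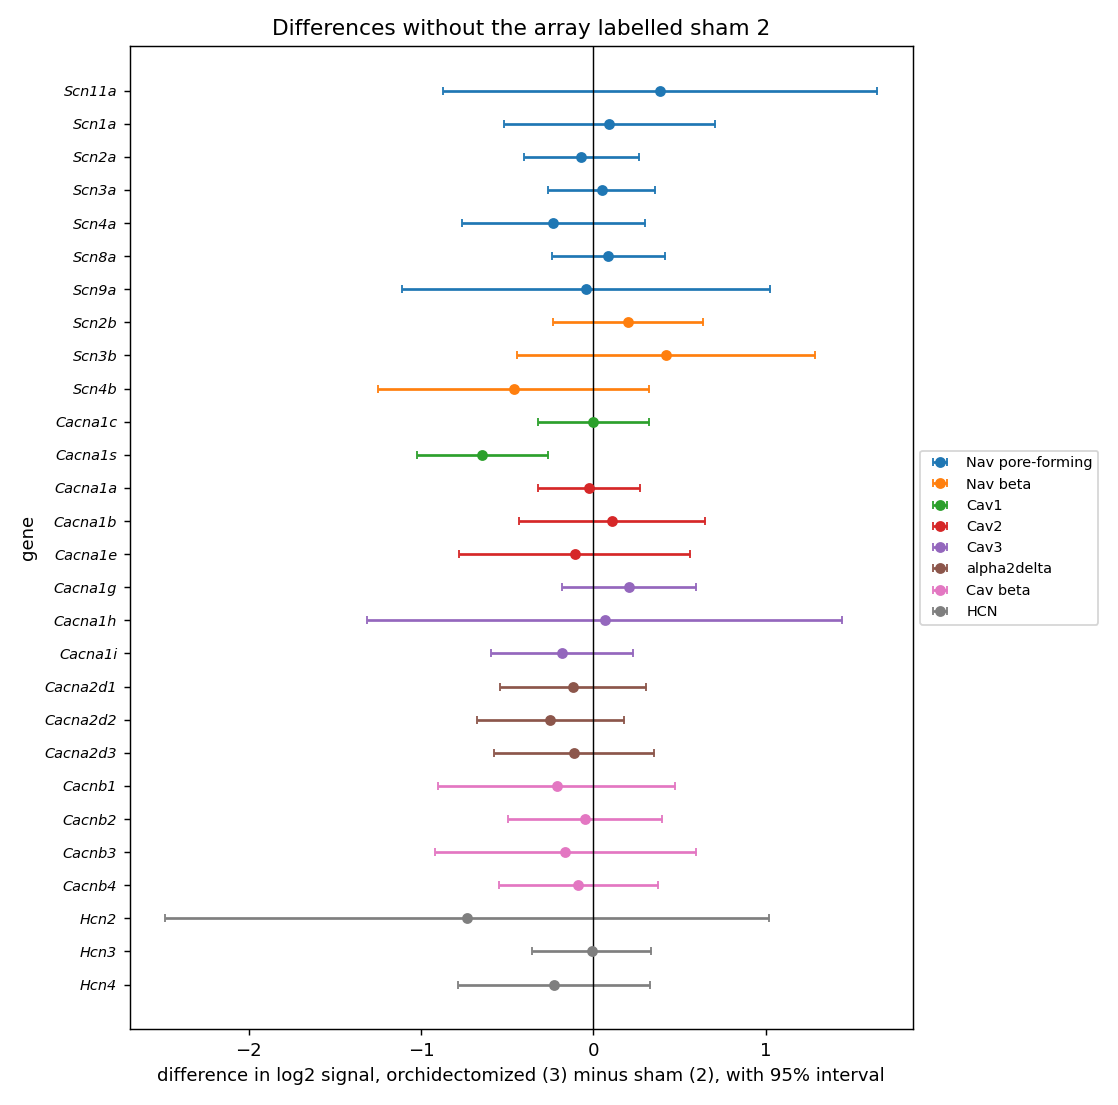
Difference in log2 signal, orchidectomized minus sham, for the tested channel genes described by name (points, coloured by class) with 95% intervals from limma (bars), 3 orchidectomized against 2 sham arrays. The interval of Cacna1s lies below 0 from -1.02 to -0.26, those of all the other genes drawn span 0, and that of Hcn2 is the widest; the Scn3b point rests on saturated spots.

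Among the pore-forming sodium channel genes of the brain, Scn2a, found on axons of excitatory neurons, had 2.58, 2.52 and 2.54 on the orchidectomized arrays, against 2.73 and 2.50 on sham 1 and sham 3. The 5 values lie within 0.23 of each other and the groups overlap, with a difference of -0.07 (standard error 0.13, 95% interval -0.40 to 0.26; limma adjusted p 0.988). Scn1a, prominent in inhibitory interneurons, had 0.39, 0.53 and 1.01 on the orchidectomized arrays, against 0.31 and 0.79 on sham 1 and sham 3. The highest and the lowest value of Scn1a, orchidectomized 3 and sham 1, shared a slide, and the groups overlap with a difference of 0.09 (-0.52 to 0.70). Scn8a, a channel of the axon initial segment and nodes, had 0.08, 0.16 and 0.13 on the orchidectomized arrays, against -0.07 and 0.14 on sham 1 and sham 3. The difference of Scn8a was 0.09 (-0.24 to 0.42), and Scn3a, most abundant in the embryonic brain, differed by 0.05 with its 5 values ranging over 0.00 to 0.15. Scn3a and Scn2a are neighbouring genes on rat chromosome 3, where Scn1a and Scn9a are also direct neighbours.

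Of the sodium channel genes known from skeletal muscle and sensory neurons, Scn4a, Scn9a and Scn11a were well above background on all 6 arrays. Scn4a, the skeletal muscle channel, had -6.30, -6.66 and -6.11 on the orchidectomized arrays, against -5.94 and -6.30 on sham 1 and sham 3, and the groups overlap. Its difference was -0.23 (-0.76 to 0.30), and the mean log2 value of 3 skeletal muscle markers was -4.75 to -4.22 on the orchidectomized arrays, against -4.50 and -4.37 on the sham arrays. The sensory neuron genes Scn9a and Scn11a both had their highest value of the 5 arrays on orchidectomized 3. Scn11a had -6.00, -6.38 and -4.73 on the orchidectomized arrays, against -5.80 and -6.38 on sham 1 and sham 3, a difference of 0.39 with a wide interval of -0.87 to 1.65. Scn9a had 5 values ranging over -5.74 to -4.61 and a difference of -0.04 (-1.11 to 1.03). Scn10a, another sensory neuron gene, was well above background only on sham 3 and the array labelled sham 2, and was not tested.

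None of the sodium channel beta subunit genes was called. Scn4b, which contributes to a resurgent sodium current in some neurons, had 0.34, 0.42 and -0.54 on the orchidectomized arrays, against 0.43 and 0.64 on sham 1 and sham 3. All 3 orchidectomized values lie below both sham values, with orchidectomized 3 far below the rest, and the difference of -0.46 (standard error 0.32, -1.25 to 0.32; limma adjusted p 0.988) was -0.16 without orchidectomized 3. With all 6 arrays the difference of Scn4b was 1.51. Scn2b, next to Scn4b on chromosome 8, had -3.02, -3.24 and -2.82 on the orchidectomized arrays, against -3.11 and -3.35 on sham 1 and sham 3. The values of Scn2b overlap, and its difference was 0.20 (-0.23 to 0.64). Scn3b read 5.04, 4.78 and 5.83 on the orchidectomized arrays, against 5.06 and 4.53 on sham 1 and sham 3, but it was saturated on all 5 of these arrays, so no fold between the groups is given for it.

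Of the L-type calcium channel genes, Cacna1s showed the smallest unadjusted p of the channel genes. Cacna1s, known as the voltage sensor of skeletal muscle, had -4.63, -4.53 and -4.88 on the orchidectomized arrays, against -4.06 and -4.01 on sham 1 and sham 3. The sham values lie close together above all 3 orchidectomized values, a difference of -0.64 (standard error 0.15, -1.02 to -0.26), with an unadjusted p of 0.00636 that did not pass adjustment (limma adjusted p 0.988). It was the 1 gene of 31 with an unadjusted p under 0.05, where 2.71% of all tested probes were. The difference was -0.82 within slide 2 and -0.62 within scan day 1, both against sham 1 alone, and on the array labelled sham 2 the value was -6.87, which is below all others. With all 6 arrays the difference of Cacna1s had the other sign, 0.30 (limma adjusted p 0.881). Cacna1s was singled out here after its values were seen, and with normexp it differed by -0.29 and 0 of 31 genes had an unadjusted p under 0.05, where 0.706% of all tested probes did. With slide as a block, where the difference is orchidectomized 3 minus sham 1 alone, 12 of 31 genes had one, where 27.4% of all tested probes did. Cacna1c, the main L-type gene of hippocampal neurons, had -0.25, -0.28 and -0.11 on the orchidectomized arrays, against -0.26 and -0.17 on sham 1 and sham 3. These 5 values of Cacna1c span 0.17 and the group means coincide, with a difference of 0.00 (-0.32 to 0.32). Cacna1f, a gene of retinal photoreceptors, read -9.73, -9.67 and -9.71 on the orchidectomized arrays, against -6.86 and -8.55 on sham 1 and sham 3. It was well above background on sham 1 alone and was not tested.

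The values of the 3 presynaptic calcium channel genes overlapped between the groups. Cacna1a, the P/Q-type gene that drives fast transmitter release, had -0.32, -0.33 and -0.35 on the orchidectomized arrays, against -0.27 and -0.35 on sham 1 and sham 3. Its 5 values lie within 0.09 of each other, and the difference was -0.02 (-0.32 to 0.27). Cacna1b, the N-type gene, had 1.58, 1.61 and 2.16 on the orchidectomized arrays, against 1.58 and 1.76 on sham 1 and sham 3. Orchidectomized 3 is the high array and the groups overlap, with a difference of 0.11 (-0.43 to 0.65), while the dimmer probe of the gene differed by -0.10. Cacna1e, the R-type gene, had -1.20, -0.84 and -1.57 on the orchidectomized arrays, against -1.36 and -0.83 on sham 1 and sham 3, and its values overlap with a difference of -0.11 (-0.78 to 0.56).

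The T-type genes carry low-voltage calcium current that supports burst firing. Cacna1g had -0.54, -0.64 and -0.26 on the orchidectomized arrays, against -0.70 and -0.67 on sham 1 and sham 3. All orchidectomized values lie above both sham values, with a difference of 0.21 (standard error 0.16, -0.18 to 0.60; limma adjusted p 0.988). The dimmer probe differed by 0.13, and on it the groups overlap. Without orchidectomized 3 as well, the difference of Cacna1g was 0.10. Of 5 listed thalamus and habenula markers, 3 were on the array. Their mean log2 value was -1.55, -1.71 and -1.43 on the orchidectomized arrays, against -0.60 on sham 1 and -1.73 on sham 3. On sham 1 Prkcd (0.14) and Calb2 (0.62) were higher than on those other arrays, while Lhx9 (-2.57) was near its -2.66 on sham 3. The part of these markers in the values of Cacna1g, lowest on sham 1, was not tested. Cacna1h had 2.51, 2.48 and 1.42 on the orchidectomized arrays, against 1.28 and 2.86 on sham 1 and sham 3. Its low values fall on orchidectomized 3 and sham 1, the arrays of slide 2, so the groups overlap widely with a difference of 0.07 (-1.31 to 1.44). Cacna1i had 1.73, 1.55 and 1.31 on the orchidectomized arrays, against 1.78 and 1.65 on sham 1 and sham 3. It is lowest on orchidectomized 3, and the groups overlap with a difference of -0.18 (-0.59 to 0.23).

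**Figure D2:**
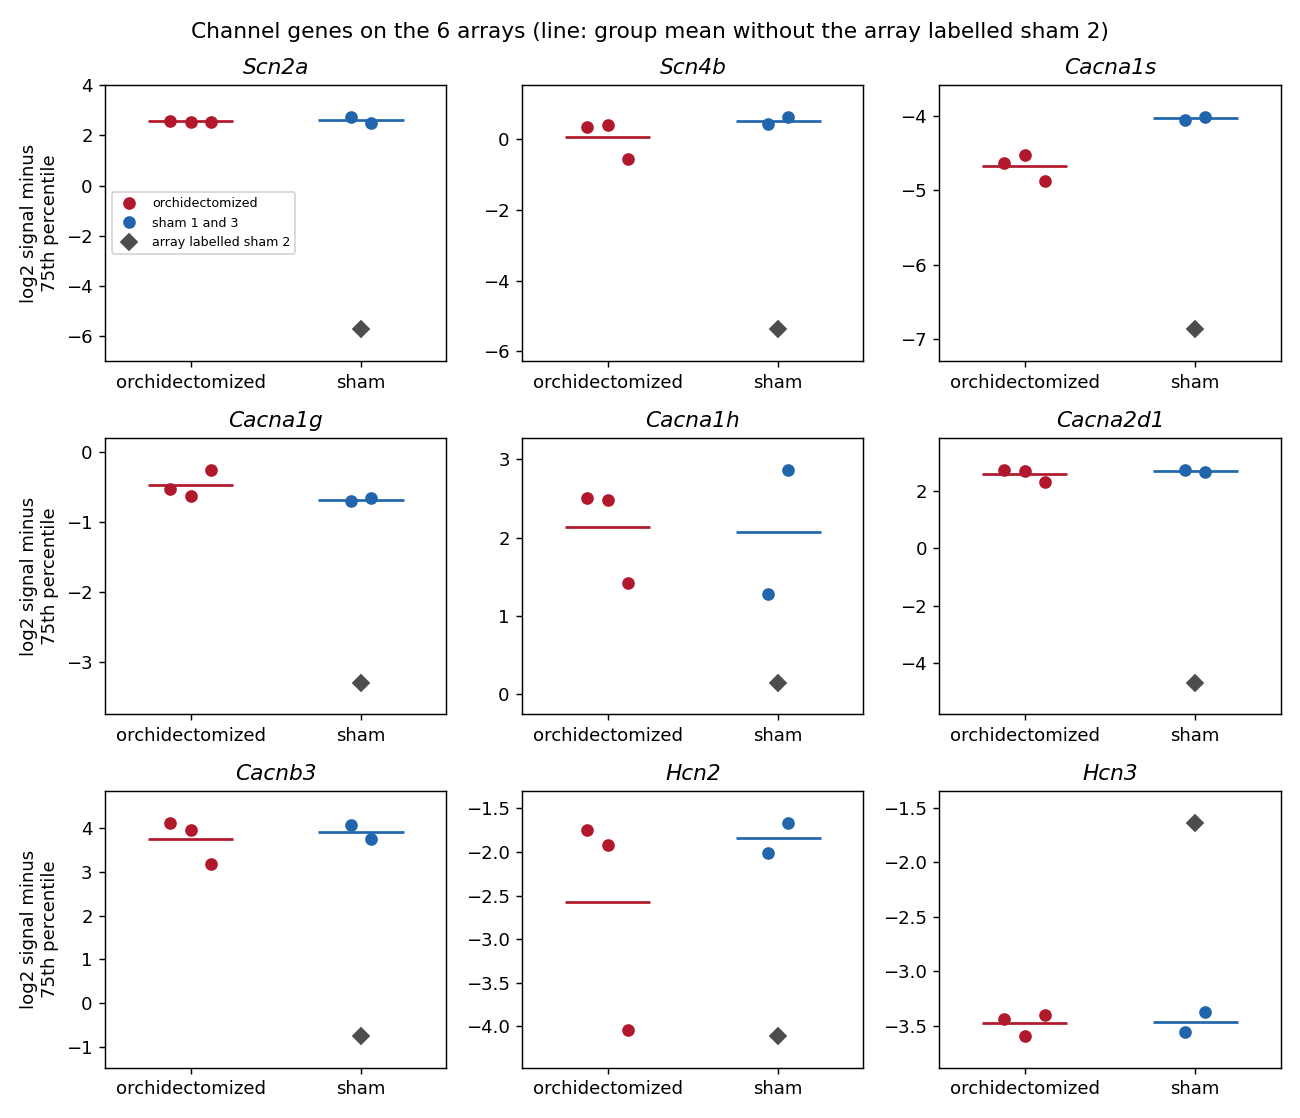
Log2 signal minus the 75th percentile of the array (y axis, scale differs by panel) of 9 channel genes in orchidectomized (red, n = 3) and sham rats (blue circles, sham 1 and 3, and a grey diamond for the array labelled sham 2), with lines at group means without that array. The diamond is the lowest value in every panel except Hcn3, where it is the highest, and the low orchidectomized value of Hcn2 and of Scn4b is orchidectomized 3.

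The auxiliary calcium channel subunits were all slightly below 0 in orchidectomized rats, none past the threshold. With normexp 1 of the 3 alpha2delta genes and 1 of the 4 beta genes were above 0, where 68.7% of all tested probes were. Cacna2d1, a binding site of gabapentin, had 2.72, 2.68 and 2.30 on the orchidectomized arrays, against 2.71 and 2.66 on sham 1 and sham 3. Orchidectomized 3 is the low value, and the difference was -0.12 (-0.54 to 0.31). Cacna2d3 had 0.26, 0.08 and -0.09 on the orchidectomized arrays, against -0.01 and 0.40 on sham 1 and sham 3, which overlap with a difference of -0.11 (-0.57 to 0.35). Cacna2d2, also bound by gabapentin, had -5.56, -5.80 and -5.60 on the orchidectomized arrays, against -5.21 and -5.60 on sham 1 and sham 3. It is highest on sham 1, and the difference was -0.25 (-0.68 to 0.18). Cacna2d4, known from the retina, was well above background on 0 of 6 arrays and was not tested.

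For all 4 cytoplasmic beta subunit genes orchidectomized 3 was the lowest of the 5 arrays, and none was called. Cacnb1, known from skeletal muscle, had 2.89, 2.91 and 2.10 on the orchidectomized arrays, against 2.90 and 2.78 on sham 1 and sham 3. Cacnb3, abundant in hippocampus, had 4.12, 3.95 and 3.19 on the orchidectomized arrays, against 4.07 and 3.76 on sham 1 and sham 3. Cacnb4, whose loss causes epilepsy and ataxia in mice, had 0.88, 0.91 and 0.44 on the orchidectomized arrays, against 0.87 and 0.79 on sham 1 and sham 3. In these 3 genes the 2 other orchidectomized values lie above both sham values or between them. Cacnb2, known from heart, had -3.48, -3.28 and -3.63 on the orchidectomized arrays, against -3.60 and -3.23 on sham 1 and sham 3, overlapping between groups. The differences were -0.21, -0.05, -0.16 and -0.09 for Cacnb1 to Cacnb4. Without orchidectomized 3 as well, all 4 were above 0, where 42.6% of all tested probes were. Their median was then 0.06, against -0.12 with orchidectomized 3. On the 5 arrays the dimmer probe of Cacnb4 differed by 0.19. With the authors' deposited values 1 of the 4 was above 0, where 56.5% of all tested probes were.

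None of the HCN genes was called. Hcn2, widespread in brain, had -1.75, -1.92 and -4.05 on the orchidectomized arrays, against -2.02 and -1.67 on sham 1 and sham 3. Among these 5 arrays orchidectomized 3 alone is low, more than 2 log2 units below the other 4, and the difference of -0.73 (-2.48 to 1.02) became 0.01 when orchidectomized 3 was left out as well. With all 6 arrays the difference of Hcn2 was 0.02. Hcn3 had -3.44, -3.59 and -3.41 on the orchidectomized arrays, against -3.56 and -3.38 on sham 1 and sham 3, and its difference was -0.01 (-0.35 to 0.34). Hcn4, the pacemaker channel of the heart, had -3.12, -3.54 and -3.72 on the orchidectomized arrays, against -3.07 and -3.40 on sham 1 and sham 3. These values overlap, and the difference was -0.23 (-0.79 to 0.33).

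Among the 5 arrays other than the one labelled sham 2, orchidectomized 3 was the lowest for 15 of the 31 tested channel genes, where it was the lowest for 30.7% of all tested probes, and the highest for 9, where it was the highest for 34.5%. Before scaling, its 75th percentile of log2 signal was 10.13, against 10.79 to 11.33 on the others of these 5 arrays. The part of this in its values was not tested. Values spanned more than 1 log2 unit at 6 genes (Scn9a, Scn11a, Scn3b, Scn4b, Cacna1h and Hcn2), where 14.1% of all tested probes did. Scn3b was saturated on all 5 of these arrays, so its range, and its place as highest on orchidectomized 3, do not measure expression. The median range was 0.59 log2 units for the channel genes and 0.48 for all tested probes. A difference of more than 0.5 in size was found at Cacna1s and Hcn2, 2 of the 31 genes, where 6.23% of all tested probes had one. Of the 8 genes with a second probe, 6 had the same sign of difference on both probes, and Cacna1b and Cacnb4 did not.

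On the array labelled sham 2 most neuronal channel genes were far below the other 5 arrays, while some members kept their level and Hcn3 was higher. It lay over 1 log2 unit below the median of the other 5 at 23 of the 31 tested genes, where 24% of all tested probes did, and over 5 units below at 14 as measured, where 3.88% of probes did. With probes not well above background on it held at the lowest signal that was, a setting chosen after seeing the data, these counts were 23 of 31, where 23% of probes did, and 12 of 31, where 3.26% did. The median over the 31 genes was -3.85, and 0.01 over all tested probes. This is 1 array, so no test was made. Fewer cells of a type and less RNA per cell cannot be told apart in whole tissue.

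Among the lowest were Scn2a at -5.73 there, against 2.50 to 2.73 on the other 5, and Cacna1b at -6.92, against 1.58 to 2.16. Scn1a lay -7.77 from the median of the other 5, Scn3a -6.02 and Scn8a -5.99. Of the sodium channel beta genes, Scn4b lay -5.80 from the median, and Scn3b, saturated on the others, was at least 128-fold dimmer. Cacna2d3 was not well above background there and at least 200.3-fold dimmer, Scn2b at least 21.3-fold and Cacnb2 at least 16.8-fold. In these bounds the mean of the other 5 arrays is set against the dim value or, where the dim probe was not well above background, the lowest signal that was. Cacna2d1 had -4.67, against 2.30 to 2.72. Cacna1a was nearer to the others, at -2.21 against -0.35 to -0.27, while its dimmer probe was not well above background there and at least 14.2-fold dimmer than on the other 5.

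Other members of the same families were near their level on the other 5 arrays. Scn9a, Cacna1i and Cacnb4 lay inside the range of the other 5, and 7 of the 31 genes lay within 1 log2 unit of the median. Of all tested probes, 24% lay over 1 unit lower and 18.8% over 1 unit higher. Scn9a, Scn11a and Cacna2d2, among the 7, were dim on the other 5 arrays (medians -5.66, -6.00 and -5.60), which leaves little room for a lower signal. Cacna1i had 1.47 there, against 1.31 to 1.78 on the others, while the T-type genes Cacna1g and Cacna1h lay -2.66 and -2.33 from the median. Cacnb4 had 0.59, against 0.44 to 0.91, where Cacnb1 lay -5.27 and Cacnb3 -4.70 from the median. Scn9a had -5.53, against -5.74 to -4.61, whereas its neighbour Scn1a had -7.23, against 0.31 to 1.01. The dim Scn9a probe could not have shown a fall as large as that of Scn1a.

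Hcn3 was the 1 tested gene over 1 log2 unit higher on the array labelled sham 2, where 18.8% of all tested probes were. It had -1.64 there, against -3.59 to -3.38 on the other 5, and Hcn4 had -2.92, against -3.72 to -3.07. Hcn3 and Hcn4 lay above all other 5 arrays. Hcn2 lay below all of them at -4.11, but close to its -4.05 on orchidectomized 3. Scn10a, outside the test, had -3.60 there, against -9.64 to -7.49, where only sham 3 among the other 5 was well above background. All 7 choroid plexus markers were well above background on this array with a mean log2 value of 4.86, against -4.39 to -2.50 on the other 5; the part of that tissue in the Hcn3 and Scn10a values was not tested. Of 3 sensory ganglion markers, 3 were over 1 log2 unit lower on it.

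**Figure D3:**
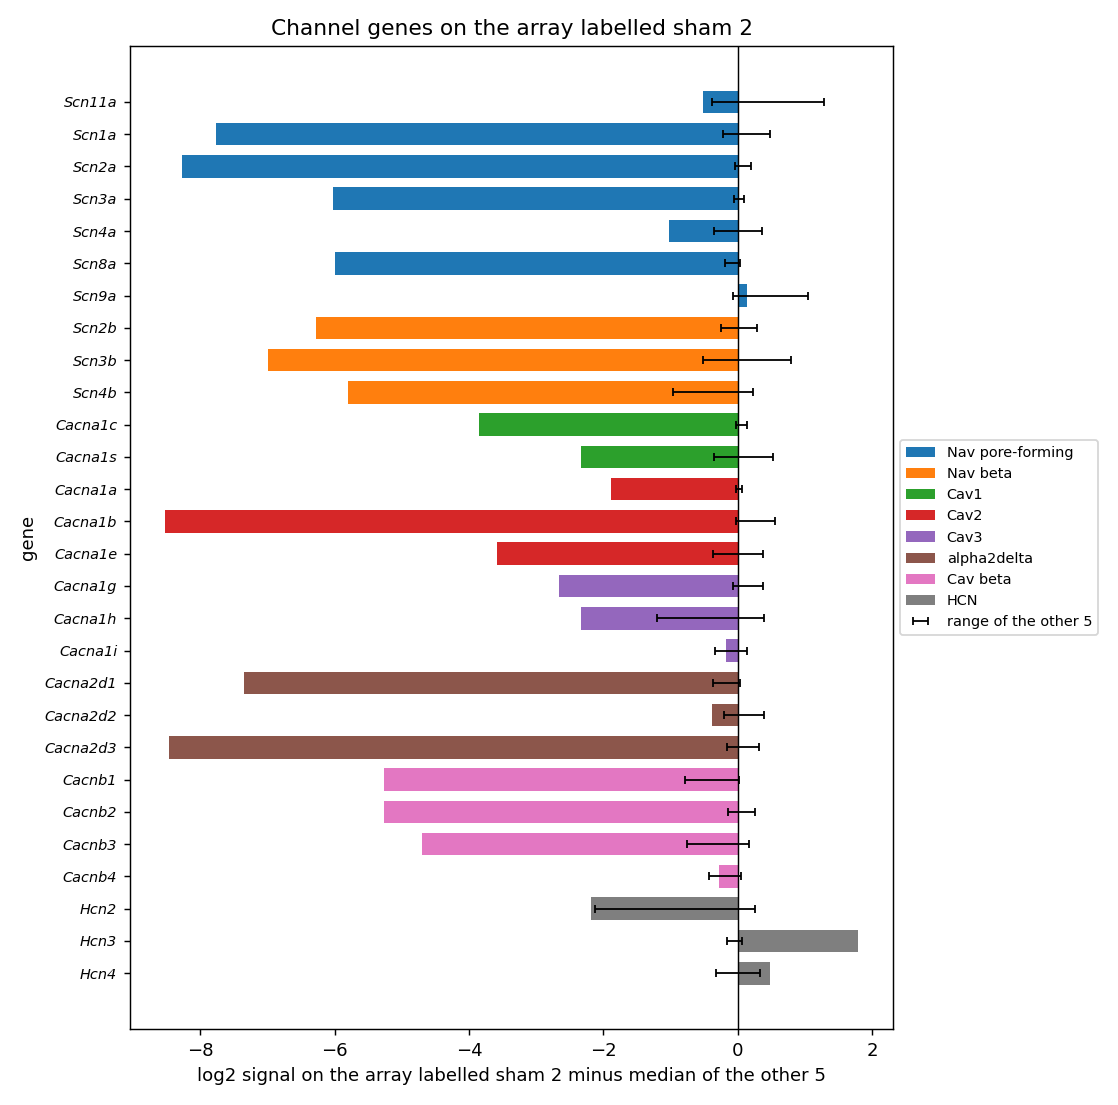
Log2 signal on the array labelled sham 2 minus the median of the other 5 arrays (bars, coloured by class) for the tested channel genes described by name, with the range of the other 5 around their median (black bars at 0). Bars run from -8.53 at Cacna1b to 1.79 at Hcn3, and those of Scn9a, Cacna1i and Cacnb4 end inside the black bars; Scn2b, Cacna2d3 and Cacnb2 were not well above background on that array and their bars are drawn as measured.

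**Figure D4:**
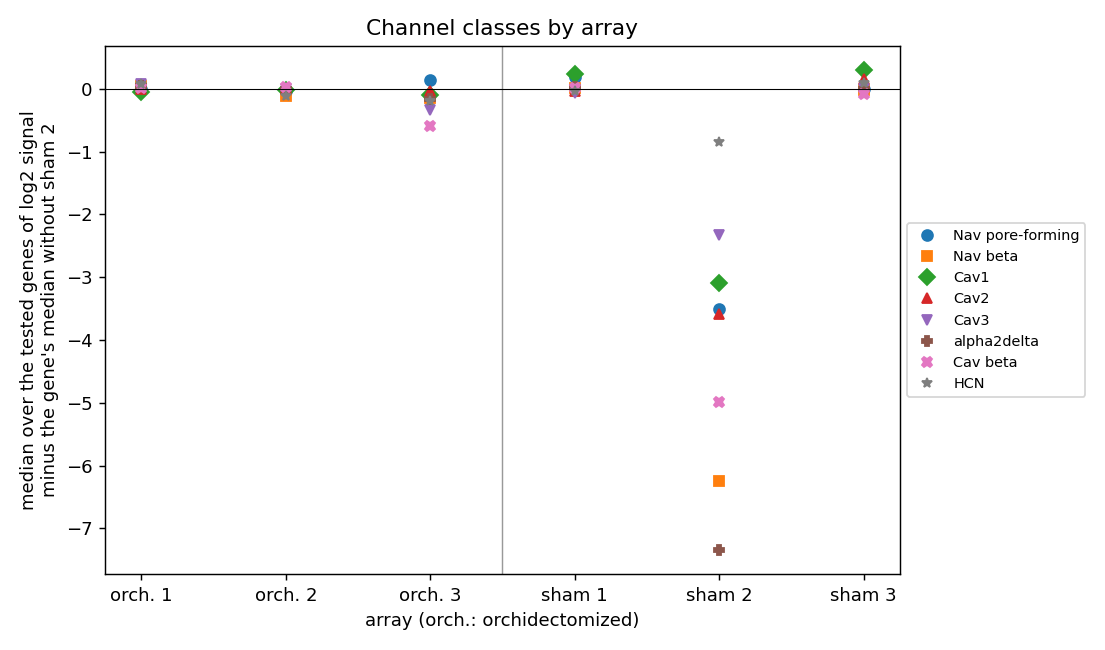
Median over the tested genes of each channel class of the log2 signal minus the gene's median on the 5 arrays other than the one labelled sham 2 (y axis), for each array (x axis). Class values lie between -0.60 and 0.30 on those 5 arrays and between -7.35 (alpha2delta) and -0.85 (HCN) on the array labelled sham 2.

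Genes that bind or regulate these channels were looked for from a fixed list. Of 35 partner genes, 24 had a named probe and all 24 were tested. Without the array labelled sham 2, 0 of 24 were called in limma, where 0% of all tested probes were, and 0 had an unadjusted p under 0.05, where 2.71% did, with 13 above and 11 below 0 and a median of 0.01. The calmodulin genes Calm2 and Calm3 each differed by 0.34, but of the 5 arrays compared their probes were saturated on all 5 and on 4. Cacng4, a gamma subunit gene, had -5.21, -4.77 and -5.19 on the orchidectomized arrays, against -5.36 and -5.34 on sham 1 and sham 3. Cacng5, another gamma subunit gene, had -5.44, -5.68 and -5.04 on the orchidectomized arrays, against -5.16 and -5.03 on sham 1 and sham 3. The difference was 0.29 for Cacng4 and -0.29 for Cacng5. The groups did not overlap for 2 of the 24, Cacng4 (higher, where 6.24% of all tested probes were) and the RIM-binding protein gene Rimbp2 (lower, where 10% were), and Rimbp2 differed by -0.27. On the array labelled sham 2, 14 of the 24 were over 1 log2 unit lower, where 24% of all tested probes were, among them the HCN trafficking gene Pex5l at -3.92 against 2.50 to 2.86 and the gamma subunit gene Cacng2 at -4.47 against 2.98 to 3.11. The sodium channel partner gene Fgf14 was the 1 that was over 1 log2 unit higher, where 18.8% of all tested probes were. Rimbp2, Pex5l, Cacng2 and Fgf14 were chosen after their values were seen.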

How the data were processed

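Hippocampal RNA of 6 rats was measured, 3 orchidectomized and 3 sham-operated, with 200 ng of each sample labelled with Cy3, per the labels' protocols. Per the file headers, the deposited intensity is the processed signal of Agilent Feature Extraction 10.5.1.1, background-subtracted and detrended. Flags for saturation, outliers and signal above background were used as deposited, per the file headers. The authors' deposited table holds log2 values equal to log2 processed signal plus 1 constant per array. Its column medians were 8.02, 7.94 and 7.91 (orchidectomized 1 to 3) and 7.77, 7.62 and 8.04 (sham 1 to 3). Its scale is log2, and its centring stays unknown.

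Control spots (1377 of 44254) and outlier spots were left out, log2 values were averaged per probe, and the array's 75th percentile was subtracted. Of 30367 probes, 18004 were named through unversioned RefSeq accessions (GRCr8 table), since the files hold no gene names; 5 probes flagged on an array were dropped. Normexp, an alternative, was run on median spot and background signals. Probes well above background (at least 50% of spots) on all arrays of a group were tested with limma 3.58.1 (R 4.3.3), with two-sided p-values adjusted by Benjamini-Hochberg over every tested probe, 24631 with 6 arrays and 25208 without sham 2. The other members were named, and values were given by array for the 3 with the largest difference and the 3 brightest per class; Scn2b, Cacnb2, Hcn3 and Scn10a were added, and Scn10a was chosen after its values were seen. The members, classes, partner genes and marker lists were chosen with earlier results of these data known. Some members and partner genes are not reported here by name, and the counts and class medians include them.

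The labels do not say that replicate numbers pair animals. Correlations of same-numbered deviations from the group mean were 0.05, -0.03 and -0.03. The sham mean included the array labelled sham 2, which stood apart, so these values cannot decide whether the arrays were paired. The labels call the samples biological replicates. On simulated data with the spread of the 5 arrays, 33 of 100 probes changed by 1 log2 unit and 90 of 100 changed by 2 were recovered, with 10 unchanged probes called. At the spread of the 6 arrays 0 of 100 were recovered at either size. The simulated noise was independent between arrays, with no shift by slide, scan day or single array. These rates therefore need not hold for the real arrays. The number of arrays limits the precision.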

Additional observations from a re-analysis of the deposited data

How the results depend on the processing

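Across 6 arrays 0 probes were called, but 1 after quantile normalization and 13 under array weights. Without the array labelled sham 2 it was 0, and 2 with quantile normalization, 1 with median scaling, 18 with the authors' deposited values and 10 when scan day was a block. Leaving out another array as well gave 0 to 251, with 251 without sham 3 and 22 without sham 1, where the lone sham array was assumed to vary like the others. No channel gene was called in any of these settings. The median difference of the channel genes over 6 arrays was 1.30 and lay between 0.92 and 1.37 across normexp, quantile and median scaling, brightness filters, deposited values and the mean of all probes. It was -0.09 without sham 2, -0.11 in the slide block fit, -0.09 in the scan day fit and 0.01 under array weights, which gave sham 2 a weight of 0.028. It was 1.76 without sham 1 and 1.97 without sham 3. In the comparison without sham 2, array weights gave orchidectomized 3 the lowest weight, 0.258, against 0.849 to 2.66 on the others. Without sham 2 the median of -0.09 was 0.00 with normexp, which moved the median of all tested probes to 0.08, -0.03 with the authors' values and -0.02 without orchidectomized 3. The replicate block changed no call, with 0 probes called in both comparisons and medians of 1.30 and -0.11. Among single genes without sham 2, 27 of 496 values moved by more than the spread between replicates and 64 changed sign, and none was called (smallest limma adjusted p 0.137). Over 6 arrays 16 of 524 moved and 81 changed sign. The signal of Scn3b is limited by saturation and that of Scn10a, Cacna1f and Cacna2d4 by background.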

Other observations

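Cacna1h was lower on the arrays of slide 2 than on the others, the array labelled sham 2 left out. Its log2 signal was 1.42 on orchidectomized 3 and 1.28 on sham 1, both on slide 2. It was 2.51, 2.48 and 2.86 on orchidectomized 1, orchidectomized 2 and sham 3. The array labelled sham 2, on slide 3, had the lowest value, 0.15. Within each group slide 2 held a single array, so slide and animal cannot be told apart. Cacna1f, dim elsewhere, was well above background at -6.86 on sham 1, against -9.73 to -8.55 on the other arrays.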
